A study of Mus musculus with 15 samples.

Results

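A set of 10 genes known as targets of FOXO factors in insulin signaling was followed through primary mouse chondrocytes treated with LY294002, with 3 other inhibitors and with DMSO. The genes are Txnip, Irs1, Irs2, Insr, Pik3ip1, Sesn1, Sesn3, Ccng2, Bcl6 and Fbxo32. They were taken by their gene symbol in the annotation of the array, which gave 22 probe sets (array probes that read 1 transcript together) for these 10 genes, out of 45037 probe sets and 18193 named genes in all. Cartilage of the hind limbs of CD1 mouse embryos at day 15.5 was plated as primary monolayer cultures. Cultures for 3 arrays each were treated with LY294002 (an inhibitor of PI3K, 10 µM), U0126 (an inhibitor of MEK, upstream of ERK), SB202190 (an inhibitor of the p38 kinases, which the deposited design text places with U0126 under the MEK/ERK pathway), or Trichostatin A (TSA, an inhibitor of histone deacetylases), and 3 arrays were of cultures given the solvent DMSO alone. The labels and the study's methods give 24 h of treatment and the deposited design text gives 2 h. The labels write LY for LY294002, UO126 for U0126 and SB90 for SB202190. The doses of U0126, SB202190 and TSA are not given in the sources used here. All groups share the strain, the stage and the culture, and LY294002 is known to act on mTOR as well as on PI3K.

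Insulin and IGF receptors recruit the substrates Irs1 and Irs2, which activate PI3K. The lipid that PI3K makes brings Akt to the membrane, and Akt phosphorylates FOXO transcription factors and keeps them out of the nucleus. When the pathway is shut, FOXO factors enter the nucleus and turn on genes that restrain growth, slow the cell cycle or save energy, and also the receptor and its substrates, which is a known feedback of the pathway. In cartilage the pathway is known for its part in the growth of the long bones.

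The FOXO factors bind the forkhead core GTAAACA and the related insulin response motif CAAAACA. The 250 bases before the RefSeq start site are shown for Txnip, Irs1, Irs2 and Ccng2, since these 4 genes were up-regulated by LY294002 and have a window in RefSeq (GRCm38.p6). The windows lie at chr3:96557707-96557956 (plus strand) for Txnip, chr1:82291440-82291689 (minus strand) for Irs1, chr8:11008930-11009179 (minus strand) for Irs2 and chr5:93267323-93267572 (plus strand) for Ccng2. Each is written 5′ to 3′ along its gene, and the capitals mark the forkhead core GTAAACA, the insulin response motif CAAAACA, the E-box CACGTG that Mlx factors and other helix-loop-helix proteins bind, and the CCAAT box CCAAT, on either strand.
Txnip: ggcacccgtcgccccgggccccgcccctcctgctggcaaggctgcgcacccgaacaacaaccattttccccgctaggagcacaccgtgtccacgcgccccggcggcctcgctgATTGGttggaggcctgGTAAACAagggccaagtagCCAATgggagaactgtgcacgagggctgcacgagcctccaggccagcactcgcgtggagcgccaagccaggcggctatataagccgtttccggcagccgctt
Irs1: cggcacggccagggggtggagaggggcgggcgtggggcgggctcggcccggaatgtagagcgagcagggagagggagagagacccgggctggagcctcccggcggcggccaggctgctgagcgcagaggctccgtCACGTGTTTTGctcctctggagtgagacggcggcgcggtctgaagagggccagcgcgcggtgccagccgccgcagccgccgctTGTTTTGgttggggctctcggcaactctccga
Irs2: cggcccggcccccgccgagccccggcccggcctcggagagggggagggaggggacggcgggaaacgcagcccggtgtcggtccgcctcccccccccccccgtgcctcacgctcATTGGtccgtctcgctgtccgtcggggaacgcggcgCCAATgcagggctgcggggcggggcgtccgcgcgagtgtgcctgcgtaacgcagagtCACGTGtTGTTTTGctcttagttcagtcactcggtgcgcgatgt
Ccng2: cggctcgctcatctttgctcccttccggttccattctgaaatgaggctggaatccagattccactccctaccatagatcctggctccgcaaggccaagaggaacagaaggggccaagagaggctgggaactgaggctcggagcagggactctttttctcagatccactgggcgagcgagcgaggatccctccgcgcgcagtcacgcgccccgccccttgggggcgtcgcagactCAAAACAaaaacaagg
Txnip holds the forkhead core at position -121, between a CCAAT box on the other strand at -137 and one at -102. Irs1 holds the insulin response motif on the other strand at -111 and -32, and the E-box at -115 shares bases with the first of these. Irs2 holds that motif on the other strand at -37, next to an E-box at -44, and Ccng2 holds it at -16. Windows were found for 8 of the 10 genes, with Insr and Fbxo32 as the others, and 10 windows in all, since Sesn1 and Bcl6 have more than 1 start. The forkhead core was in 1 of these 10 windows, against 3.17% of 32851 windows of all genes, and the insulin response motif in 3 of the 10, against 5.56% of all windows. The E-box was in 3 of the 10 (6.02% of all windows) and the CCAAT box in 5 of the 10, of 4 genes (33.8% of all windows). The Pik3ip1 window held none of these letters. A match is a run of exactly these letters and says nothing of binding. Variants of the motifs were not searched, so a window without a match may still hold one.

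**Figure D1:**
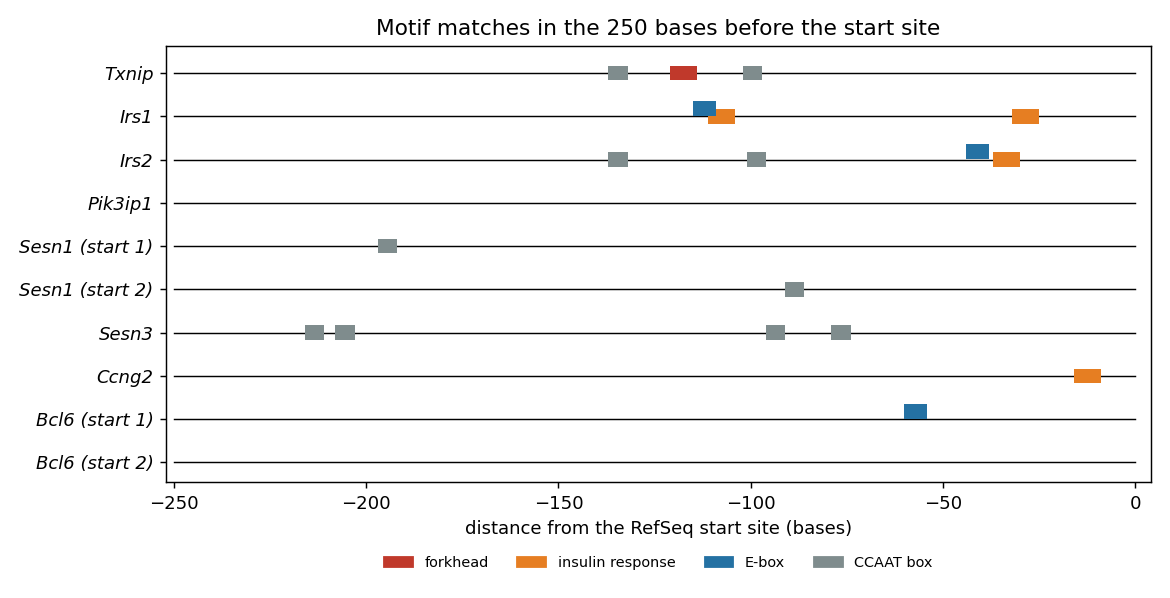
Motif matches in the 250 bases before each RefSeq start site, with the distance from the start site in bases on the x axis and 1 line per window; colours stand for the motifs, and E-boxes are drawn slightly raised. Only Txnip holds the forkhead core, and Irs1, Irs2 and Ccng2 hold the insulin response motif.

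The arrays correlated with the others of their group at a mean r of 0.989 to 0.996, and the array medians were between 6.90 and 6.996 on the log2 scale. All 10 chondrocyte markers passed the filter on low signals, which asks for a mean of at least log2 of 50 (5.64) in either group of a comparison, and Col2a1 was at 14.43 in LY294002 and 14.32 in DMSO. The summed signal of 10 chondrocyte markers was 74767 to 76652 on the LY294002 arrays, 70725 to 80370 on the U0126 arrays, 55211 to 60698 on the SB202190 arrays, 33607 to 43567 on the TSA arrays and 58401 to 64005 on the DMSO arrays. TSA lowered all 10 of them, whereas LY294002 left 7 of 10 short of the threshold and raised 3 (Matn1, Comp and Sox6). In a fit of the 6 LY294002 and DMSO arrays alone the adjusted p of Sox6 was 0.0977. With quantile normalization it was 0.120, and that of Comp was 0.0650. The 10 skeletal muscle markers had a summed signal of 2345 to 4644 in LY294002, 1357 to 1439 in TSA and 2540 to 5668 in DMSO. Of these, 9 passed the test as lower in TSA and none in LY294002. Of 8 macrophage and leukocyte markers 7 were tested, and the 8 had a summed signal of 1915 to 2123 in LY294002, 1848 to 1969 in TSA and 1678 to 2043 in DMSO, and Ptprc was below the filter. LY294002 raised 1 of the 7, Lyz2 at 0.46 (adjusted p = 0.0173), and lowered 0, while TSA raised 1 and lowered 4. The adjusted p of Lyz2 in LY294002 was 0.0863 in the 6 arrays alone and 0.109 with quantile normalization. Of 3 adipocyte markers read, Adipoq was below the filter, and the sum was 709 to 980 in LY294002, 766 to 1139 in TSA and 1234 to 1365 in DMSO, with no overlap between either inhibitor and DMSO. LY294002 lowered 1 of the 2 tested, Fabp4 at -0.80 (adjusted p = 0.0103), and TSA both. Of 5 endothelial markers 3 were tested, with Pecam1 and Cdh5 below the filter, and LY294002 changed 0 of them past the threshold and TSA raised 1. In bulk RNA of this kind, fewer cells of a type and less RNA per cell cannot be told apart, and the part of such shifts in the values below was not tested. Of the 22 probe sets of the FOXO targets, 18 passed this filter in each comparison without TSA and 20 in those with TSA, and each of the 10 genes passed through its probe set with the highest mean.

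Txnip, which binds thioredoxin and restrains glucose uptake, was the member with the widest range over the treatments. Its log2 signal was 11.21, 11.15 and 11.20 in LY294002, 9.52, 9.63 and 9.91 in U0126, 10.24, 10.30 and 10.56 in SB202190, 12.53, 12.49 and 12.49 in TSA and 9.98, 10.001 and 10.15 in DMSO. No array of any group overlapped an array of the next group in this order of levels, TSA above LY294002, then SB202190, DMSO and U0126. LY294002 up-regulated Txnip 2.21-fold, a log2 difference from DMSO of 1.14 (SE 0.10, adjusted p = 1.74e-05) in limma with Benjamini-Hochberg adjustment over all probe sets, and TSA 5.50-fold, a difference of 2.46 (SE 0.10, adjusted p = 1.21e-11). The value with U0126 was -0.36 (adjusted p = 0.0993) and that with SB202190 0.32 (adjusted p = 0.138). With the replicate number as a block these passed the threshold in opposite directions, at an adjusted p of 0.0180 for U0126, which was lower than DMSO (also 0.0351 without the third U0126 array), and 0.0297 for SB202190, which was higher. The other probe set of Txnip rose by 0.92 (SE 0.17, adjusted p = 0.00346) in LY294002 and 2.29 (SE 0.17, adjusted p = 9.53e-09) in TSA. It read 8.53, 8.68 and 9.30 in U0126 and 9.08, 9.14 and 9.34 in DMSO, so that the arrays of these groups overlapped there.

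**Figure D2:**
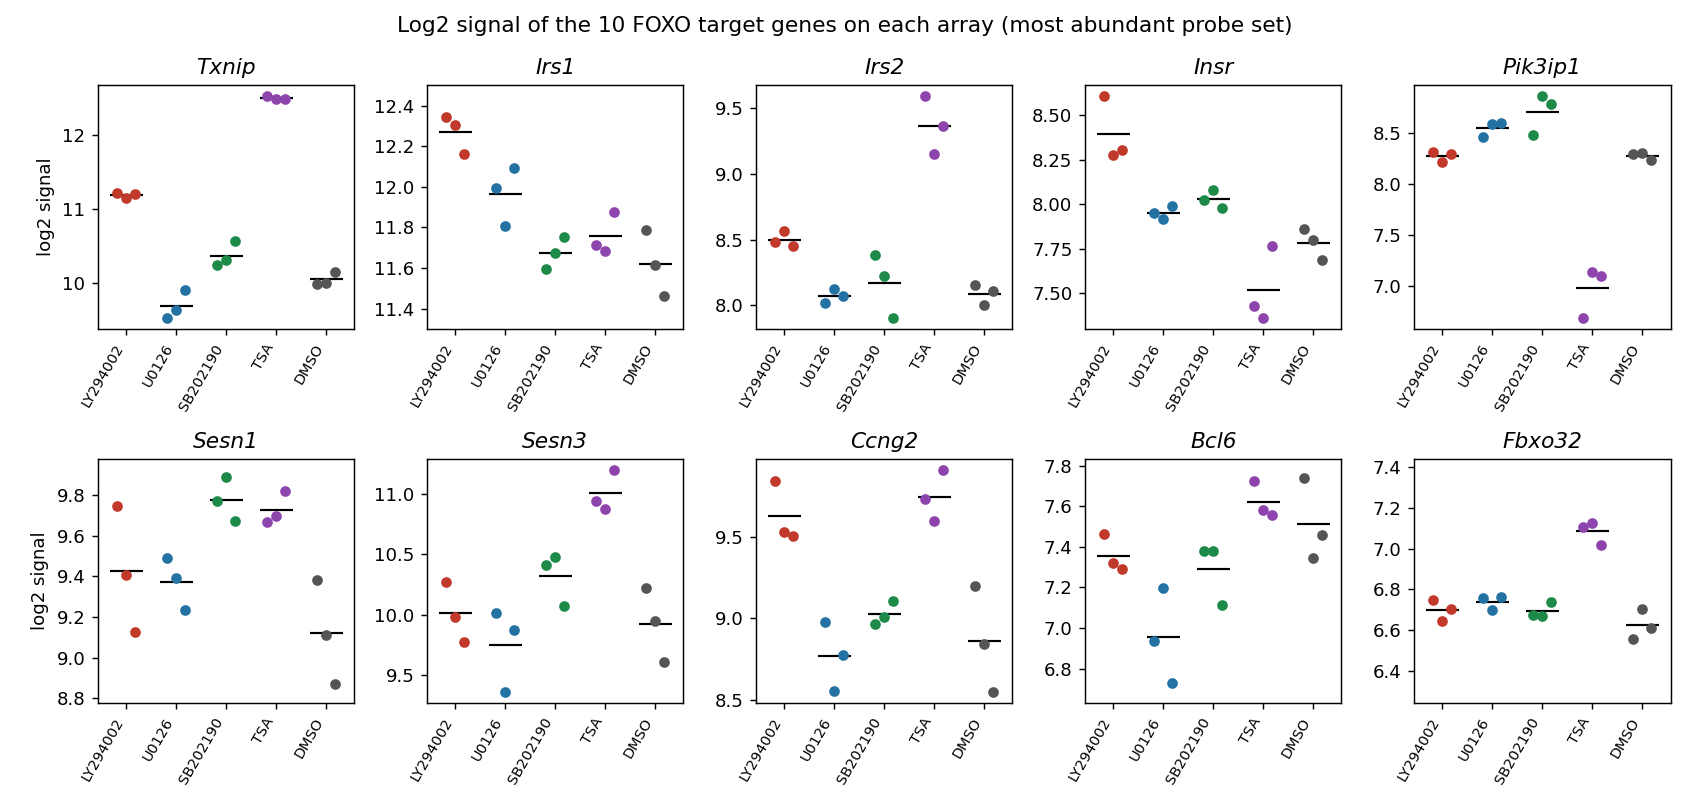
Log2 signal of the 10 genes on each array, on the y axis, for LY294002, U0126, SB202190, TSA and DMSO on the x axis; points are the 3 arrays of a group and lines their means, for the probe set with the highest mean, and each panel has its own y axis. Txnip has no overlap between any neighbouring groups, and Irs1, Irs2, Insr and Ccng2 lie above all DMSO arrays in LY294002.

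Irs1, the main adaptor of the IGF and insulin receptors in many cells, was highest in LY294002. Its log2 signal was 12.34, 12.30 and 12.16 in LY294002, 11.996, 11.81 and 12.09 in U0126, 11.60, 11.67 and 11.75 in SB202190, 11.72, 11.69 and 11.87 in TSA and 11.79, 11.61 and 11.46 in DMSO. All LY294002 arrays were above the arrays of every other group. The U0126, TSA, SB202190 and DMSO groups each overlapped the next in this order of levels, but all U0126 arrays lay above all DMSO arrays. LY294002 up-regulated Irs1 1.57-fold, a log2 difference of 0.65 (SE 0.10, adjusted p = 0.00115). Against DMSO the difference was 0.14 (95% interval -0.07 to 0.35, adjusted p = 0.284) with TSA and 0.05 (95% interval -0.16 to 0.27, adjusted p = 0.900) with SB202190, so that no change past the threshold was found with either. U0126 gave 0.34 (95% interval 0.13 to 0.56, adjusted p = 0.111), which passed without the first DMSO array (0.0452).

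Irs2, the related adaptor that FOXO1 is known to turn on in mouse liver, was 8.48, 8.56 and 8.45 in LY294002, 8.02, 8.12 and 8.07 in U0126, 8.38, 8.22 and 7.91 in SB202190, 9.59, 9.15 and 9.36 in TSA and 8.16, 8.003 and 8.11 in DMSO. TSA stood above all other arrays and LY294002 above the rest, whereas U0126, SB202190 and DMSO overlapped. TSA raised Irs2 2.42-fold, by 1.28 (SE 0.12, adjusted p = 1.51e-07) on the log2 scale, and LY294002 raised it 1.33-fold, by 0.41 (SE 0.12, adjusted p = 0.0404). This smaller difference held the threshold narrowly, and without the second LY294002 array, for example, its adjusted p was 0.116 and without the second DMSO array 0.152. The adjusted p was also 0.103 and 0.0573 without the other LY294002 arrays and 0.102 without the third DMSO array. Only 1 probe set reads Irs2.

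Insr, the insulin receptor itself, gave different answers by probe set. Of its 3 probe sets, the one with the highest mean read 8.61, 8.27 and 8.31 in LY294002, 7.95, 7.92 and 7.99 in U0126, 8.02, 8.08 and 7.98 in SB202190, 7.43, 7.36 and 7.77 in TSA and 7.86, 7.80 and 7.69 in DMSO. The LY294002 arrays lay above all others, with a difference from DMSO of 0.61 (SE 0.11, adjusted p = 0.00264), which is 1.53-fold. The next probe set read 7.04, 7.06 and 7.09 in LY294002 and 7.05, 7.28 and 7.24 in DMSO, a difference of -0.12 (95% interval -0.29 to 0.04, adjusted p = 0.343). The third was below the filter on low signals in both groups. The up-regulation of Insr therefore rests on 1 probe set, and the mean over the probe sets did not pass (adjusted p = 0.247). On the first probe set Insr was -0.26 (95% interval -0.49 to -0.04, adjusted p = 0.0575) with TSA relative to DMSO. It was 0.17 (95% interval -0.06 to 0.40, adjusted p = 0.731) with U0126 and 0.24 (95% interval 0.02 to 0.47, adjusted p = 0.357) with SB202190. None of these passed the threshold, but all U0126 and all SB202190 arrays lay above all DMSO arrays. The TSA value passed without the third TSA array (adjusted p = 0.00627).

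Pik3ip1, a membrane protein that binds and inhibits PI3K, showed no difference past the threshold with LY294002. Its signal was 8.31, 8.21 and 8.29 in LY294002, 8.45, 8.59 and 8.60 in U0126, 8.48, 8.86 and 8.78 in SB202190, 6.69, 7.14 and 7.10 in TSA and 8.29, 8.30 and 8.23 in DMSO. The LY294002 and DMSO arrays overlapped, with a difference of 0.00 on the log2 scale and a 95% interval of -0.25 to 0.24. TSA lowered Pik3ip1 2.46-fold, by a difference of -1.30 (SE 0.12, adjusted p = 9.71e-08), and all TSA arrays were more than 1 log2 unit below every other array. SB202190 arrays were all above DMSO, at 0.43 (95% interval 0.19 to 0.67, adjusted p = 0.0704), and the adjusted p was 0.0137 with the replicate block and 0.0458 without the first SB202190 array. The other probe set gave -0.81 (SE 0.13, adjusted p = 6.57e-05) in TSA and 0.09 (95% interval -0.19 to 0.36, adjusted p = 0.699) in LY294002.

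The sestrins restrain mTORC1 when growth signals or amino acids are short. Sesn1 was 9.75, 9.41 and 9.13 in LY294002, 9.49, 9.39 and 9.23 in U0126, 9.77, 9.89 and 9.67 in SB202190, 9.67, 9.70 and 9.82 in TSA and 9.38, 9.11 and 8.87 in DMSO. It was highest in SB202190 and TSA, whose arrays were all above DMSO, and the LY294002 arrays overlapped both those of DMSO and those of TSA. SB202190 up-regulated Sesn1 1.58-fold, by 0.66 (SE 0.14, adjusted p = 0.0232), and TSA 1.52-fold, by 0.61 (SE 0.14, adjusted p = 0.00213). The adjusted p with SB202190 was 0.0921 without the first SB202190 array, 0.116 without the second, 0.0844 without the second DMSO array and 0.125 without the third. LY294002 gave 0.31 (95% interval 0.01 to 0.61, adjusted p = 0.199), and without the first DMSO array, the highest of its group, its adjusted p was 0.0497. Of the other 3 probe sets of Sesn1, 1 was below the filter and the other 2 gave 0.43 and 0.34 in LY294002, neither past the threshold. In SB202190 these 2 gave 0.74 (adjusted p = 0.0629) and 0.73 (adjusted p = 0.0186). In TSA they gave 0.59 (adjusted p = 0.0210) and 0.74 (adjusted p = 0.000773), and on the first the TSA arrays overlapped those of DMSO.

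Sesn3 was 10.27, 9.98 and 9.77 in LY294002, 10.01, 9.36 and 9.87 in U0126, 10.41, 10.48 and 10.07 in SB202190, 10.94, 10.88 and 11.20 in TSA and 10.22, 9.95 and 9.61 in DMSO. Only the TSA arrays stood apart, 2.12-fold above DMSO by 1.08 (SE 0.18, adjusted p = 0.000105). LY294002 gave 0.08 (95% interval -0.30 to 0.47, adjusted p = 0.790), and its arrays overlapped those of DMSO. The other probe set of Sesn3 rose by 1.17 (SE 0.13, adjusted p = 1.88e-06) in TSA and gave 0.14 in LY294002.

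Ccng2, an unconventional cyclin that slows the cell cycle, was 9.85, 9.53 and 9.51 in LY294002, 8.98, 8.55 and 8.77 in U0126, 8.97, 9.01 and 9.11 in SB202190, 9.73, 9.60 and 9.92 in TSA and 9.20, 8.84 and 8.55 in DMSO. The LY294002 and TSA arrays overlapped each other and lay above all arrays of the other groups. LY294002 up-regulated it 1.70-fold, by 0.76 (SE 0.15, adjusted p = 0.00482), and TSA 1.85-fold, by 0.89 (SE 0.15, adjusted p = 0.000103). The difference between these treatments was -0.12 (95% interval -0.43 to 0.19, adjusted p = 0.577). The other probe set gave 0.53 (SE 0.15, adjusted p = 0.0337) in LY294002 and 0.63 (SE 0.15, adjusted p = 0.00184) in TSA. In a fit of the 6 LY294002 and DMSO arrays alone the adjusted p of Ccng2 was 0.0556.

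Bcl6, a transcriptional repressor, was 7.46, 7.32 and 7.29 in LY294002, 6.94, 7.20 and 6.73 in U0126, 7.38, 7.38 and 7.11 in SB202190, 7.72, 7.58 and 7.55 in TSA and 7.74, 7.35 and 7.46 in DMSO. All U0126 arrays lay below all DMSO arrays, while each group overlapped the next in the order TSA, DMSO, LY294002, SB202190 and U0126. It was the only member that U0126 moved past the threshold, and it was lower, with a difference of -0.56 (SE 0.12, adjusted p = 0.0233). The other probe set gave -0.11 (95% interval -0.34 to 0.12, adjusted p = 0.903), and the adjusted p of the first was 0.0783 without the first U0126 array, 0.150 without the third, 0.0889 without the first DMSO array and 0.0603 without the third. LY294002 gave -0.16 (95% interval -0.42 to 0.10, adjusted p = 0.448) and TSA 0.10 (95% interval -0.16 to 0.37, adjusted p = 0.516).

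Fbxo32, the muscle ubiquitin ligase subunit known as atrogin-1 and a FOXO target in muscle wasting, was 6.75, 6.64 and 6.70 in LY294002, 6.76, 6.70 and 6.76 in U0126, 6.67, 6.67 and 6.73 in SB202190, 7.11, 7.13 and 7.02 in TSA and 6.56, 6.70 and 6.61 in DMSO. The TSA arrays lay above all others and the other groups overlapped. TSA raised it 1.38-fold, by 0.46 (SE 0.07, adjusted p = 5.72e-05), and LY294002 gave 0.08 (95% interval -0.08 to 0.23, adjusted p = 0.528). Another of its probe sets read 6.89, 6.44 and 6.59 in TSA and 5.68, 5.36 and 5.51 in DMSO. The TSA arrays were above all DMSO arrays there too, but DMSO was below the filter on low signals, so that this probe set and the third were in the test only through TSA and are given no test here. The skeletal muscle markers were lower in TSA, as given above, and their part in the Fbxo32 values was not tested.

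With LY294002, 5 of the 10 genes were called higher and 0 lower than DMSO, where 8.85% of the 15907 genes tested were called higher and 2.21% lower. For 5 of the 10, all LY294002 arrays lay above all DMSO arrays, which held for 17.6% of all genes. The median difference of the 10 genes was 0.36, against 0.01 over all genes tested. Without replicate 2 of every treatment 1 of the 5 calls was left, that of Txnip, with an adjusted p of 0.0735 for Irs1, 0.0681 for Insr, 0.101 for Ccng2 and 0.363 for Irs2, and without replicate 3 the calls of Ccng2 (0.0771) and Irs2 (0.151) were lost. The share of all genes called higher fell as well, to 0.416% without replicate 2 and 1.60% without replicate 3. With the replicate block the members called stayed at 5, while 16.8% of all genes were called higher and 5.55% lower. With TSA, 6 were called higher and 1 lower, where 27.0% of genes were called higher and 22.7% lower. With U0126, 0 were called higher and 1 lower (1.66% and 1.02% of all genes), and with SB202190 1 was called higher and 0 lower (1.70% and 1.01%). The median difference of the 10 genes was 0.05 with U0126, 0.20 with SB202190 and 0.53 with TSA. Over all genes tested it was 0.01, 0.003 and -0.04, in that order. Insr and Irs1 passed the threshold with LY294002 and with none of the other inhibitors, Insr on 1 probe set only. All U0126 arrays for both genes, and all SB202190 arrays for Insr, nevertheless lay above all DMSO arrays. The share of all genes for which this holds is given here for LY294002 alone, so these cases are not read as changes. Txnip, Irs2 and Ccng2 passed with LY294002 and TSA, and Sesn3, Fbxo32 and Pik3ip1 passed with TSA alone. These comparisons share the DMSO arrays, so an agreement or a contrast between them is not independent, and the inhibitors were therefore set against each other directly.

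**Figure D3:**
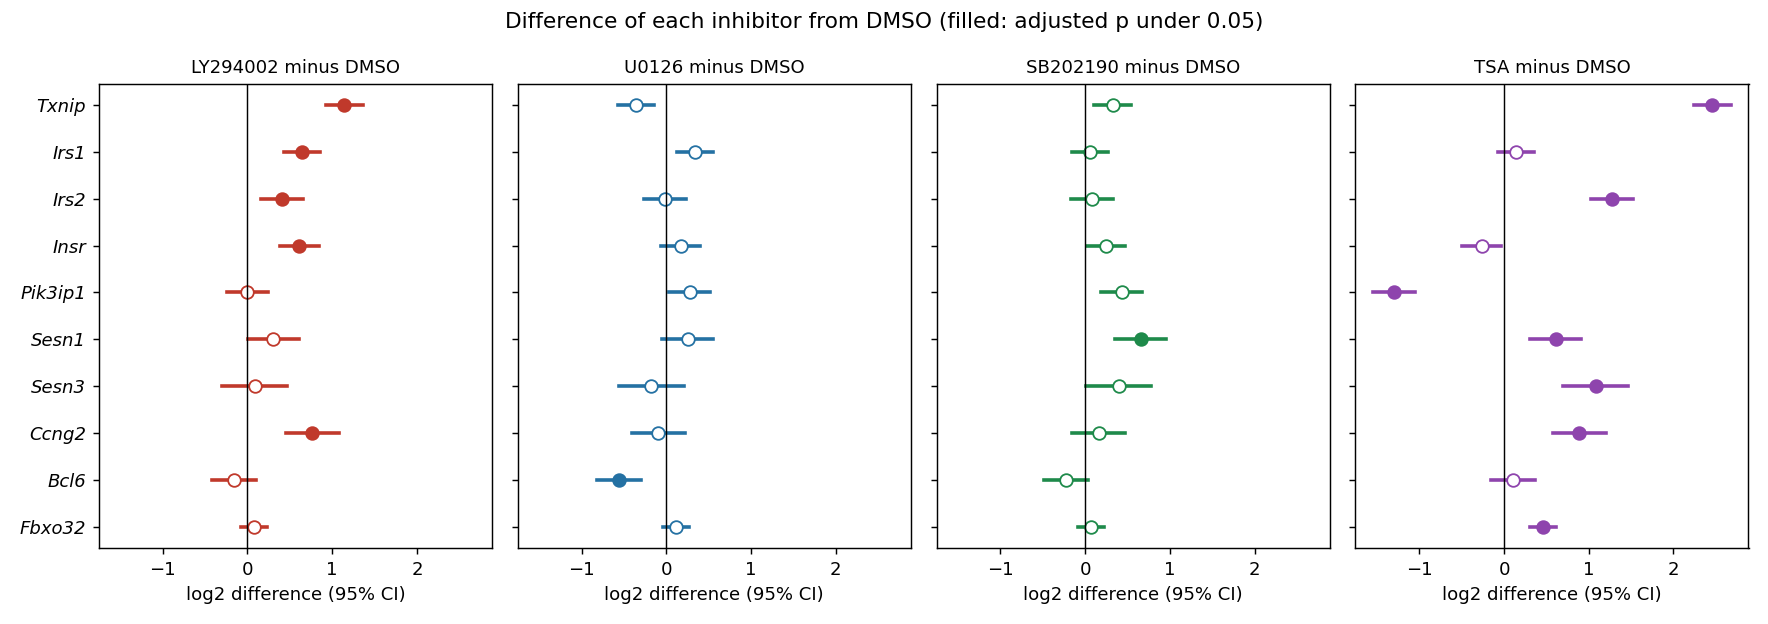
Log2 difference of each inhibitor from DMSO on a shared x axis, with 95% confidence intervals, for the 10 genes on the y axis; filled points have an adjusted p under 0.05. LY294002 has 5 filled points, all to the right of 0, while TSA has 7, of which Pik3ip1 lies at -1.30.

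Set against U0126, LY294002 gave higher signals for 4 members and lower for 0, where 4.91% of all genes were called higher and 2.36% lower. Txnip differed by 1.50 (SE 0.10, adjusted p = 6.92e-07), 2.83-fold, Ccng2 by 0.86 (SE 0.15, adjusted p = 0.00260), Insr by 0.44 (SE 0.11, adjusted p = 0.0225) and Irs2 by 0.43 (SE 0.12, adjusted p = 0.0429). The Insr call was lost without the first LY294002 array (adjusted p = 0.118), and without any 1 of the U0126 arrays (0.0509 to 0.0873). The second Insr probe set went the other way, at -0.23 (95% interval -0.39 to -0.06, adjusted p = 0.110), with all LY294002 arrays below all U0126 arrays, and the mean over the probe sets was 0.0273 (adjusted p = 0.823). The Ccng2 call was lost without replicate 2 of every treatment (0.125). The Irs2 call was lost without any 1 of the 6 arrays (0.0631 to 0.125). Irs1 was 0.31 (95% interval 0.09 to 0.52, adjusted p = 0.0888) and Bcl6 0.40 (95% interval 0.14 to 0.66, adjusted p = 0.0681), and both passed with the replicate block, at 0.0429 and 0.0121, Bcl6 also without the second U0126 array (0.0346). With the block 11.7% of all genes were called higher and 5.41% lower in LY294002 than in U0126. The other 4 members gave differences between -0.28 (Pik3ip1) and 0.26 (Sesn3).

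Set against SB202190, LY294002 gave higher signals for 3 members and lower for 1, where 3.81% of all genes were called higher and 2.19% lower. Txnip was 0.82 (SE 0.10, adjusted p = 0.000224), Irs1 0.60 (SE 0.10, adjusted p = 0.00213) and Ccng2 0.60 (SE 0.15, adjusted p = 0.0266), and Pik3ip1 was -0.43 (SE 0.12, adjusted p = 0.0417). The Ccng2 call was lost without the first or the second LY294002 array or any 1 SB202190 array (0.0520 to 0.127), and the Pik3ip1 call without any 1 LY294002 array or without the second or the third SB202190 array (0.0827 to 0.211). The Irs1 call was lost without replicate 2 of every treatment (0.0973), and that of Pik3ip1 also with the mean of its probe sets (0.0504) and with centring on the array median (0.0558). Insr was 0.37 (95% interval 0.14 to 0.60, adjusted p = 0.0646), which passed with the replicate block (0.0293), and its second probe set gave -0.06. With the block 7.75% of all genes were called higher and 4.12% lower in LY294002 than in SB202190. Irs2 was 0.33 (95% interval 0.08 to 0.58, adjusted p = 0.149), Sesn1 -0.35 (95% interval -0.65 to -0.05, adjusted p = 0.220) and Sesn3 -0.31 (95% interval -0.69 to 0.07, adjusted p = 0.444). Of the 10 chondrocyte markers, 6 were higher in LY294002 than in SB202190, and their part in these values was not tested.

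Set against TSA, 3 members were higher and 4 lower in LY294002, where 23.6% of all genes were called higher and 23.0% lower. Pik3ip1 was higher by 1.30 (SE 0.12, adjusted p = 1.05e-07), Insr by 0.88 (SE 0.11, adjusted p = 4.17e-06) and Irs1 by 0.51 (SE 0.10, adjusted p = 0.000508). Txnip was lower, at -1.32 (SE 0.10, adjusted p = 1.91e-08), as were Sesn3 at -0.997 (SE 0.18, adjusted p = 0.000245), Irs2 at -0.87 (SE 0.12, adjusted p = 1.32e-05) and Fbxo32 at -0.38 (SE 0.07, adjusted p = 0.000352). The size of the Insr value rests on 1 probe set, since the second gave -0.03 (95% interval -0.20 to 0.14, adjusted p = 0.812) with overlapping arrays and the mean over the probe sets was 0.293, which still passed. For Ccng2 no difference passed the threshold. Sesn1 was -0.30 (SE 0.14, adjusted p = 0.107), and 0.0120 was its adjusted p without the first LY294002 array. The chondrocyte markers differ along the same comparison, 10 of 10 being higher in LY294002, and their part in these values was not tested.

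**Figure D4:**
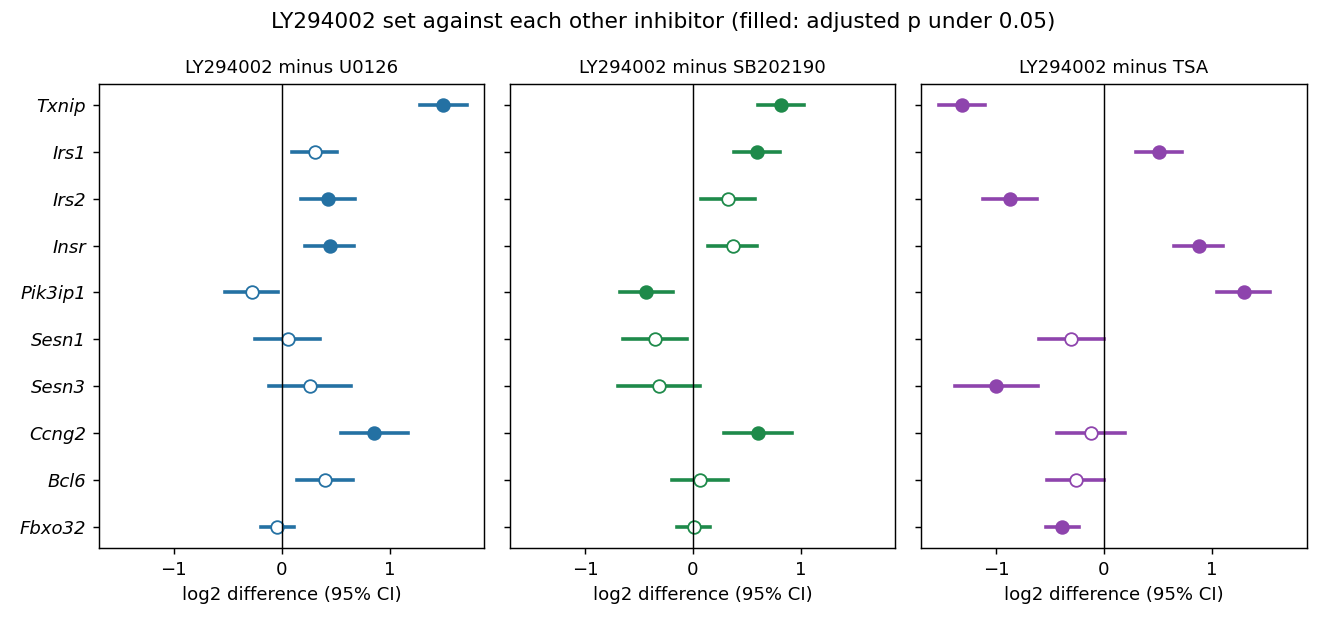
Log2 difference of LY294002 from U0126, SB202190 and TSA on a shared x axis, with 95% confidence intervals, for the 10 genes on the y axis; filled points have an adjusted p under 0.05. Txnip lies at 1.50 and 0.82 against the kinase inhibitors and at -1.32 against TSA.

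Of 36 genes of the PI3K, Akt and TOR pathway, 32 were read, and in LY294002 6 were called higher and 2 lower than DMSO, with a median of 0.18. Over all genes tested, 8.85% were called higher and 2.21% lower with LY294002, and 27.0% and 22.7% with TSA. With U0126 these shares were 1.66% and 1.02%, and with SB202190 1.70% and 1.01%. Igf1r, the IGF1 receptor, rose by 0.73 (adjusted p = 0.00495), Rictor, a subunit of mTORC2, by 0.67 (adjusted p = 0.00613), and Foxo3, a FOXO factor itself, by 0.40 (adjusted p = 0.0369). The adjusted p of Foxo3 was 0.145 in a fit of the 6 LY294002 and DMSO arrays alone. It was 0.102 with quantile normalization and 0.167 without the first LY294002 array. The mean over the probe sets of Rictor gave 0.19 (adjusted p = 0.106). Pik3r3, a regulatory subunit of PI3K, was lower at -0.69 (adjusted p = 0.000657) and Grb14, an adaptor that inhibits the insulin receptor, at -0.53 (adjusted p = 0.00184). Grb14 was also lower with SB202190, at -1.24 (adjusted p = 1.53e-06), but higher with TSA, at 0.53 (adjusted p = 9.54e-05). In U0126 1 of the 32 was called higher and 0 lower, Foxo4 at 0.35 (adjusted p = 0.0372), in SB202190 0 higher and 1 lower, and in TSA 14 higher and 7 lower, led by Pik3cb, a catalytic subunit of PI3K, at 1.19 (adjusted p = 5.52e-07) and Pdpk1, the kinase that activates Akt, at 1.12 (adjusted p = 7.61e-06). The mean over the probe sets of Foxo4 gave 0.16 (adjusted p = 0.197) in U0126. The FOXO factor Foxo1 was 0.21 (adjusted p = 0.218) in LY294002 and 0.85 (adjusted p = 3.17e-06) in TSA. The mean over the probe sets of Foxo1 gave 0.21 in LY294002 with an adjusted p of 0.0434.

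Of 26 other genes known as FOXO targets, 23 were tested, and LY294002 raised 4 and lowered 1 (8.85% and 2.21% of all genes). Klf2, a transcription factor, rose by 1.42 (adjusted p = 9.78e-05), Gadd45a, a growth arrest gene, by 0.78 (adjusted p = 0.000918), Map1lc3b, an autophagy gene, by 0.59 (adjusted p = 0.00160) and Rbl2, a pocket protein that restrains the cell cycle, by 0.54 (adjusted p = 0.0276). The adjusted p of Rbl2 was 0.0858 in a fit of the 6 LY294002 and DMSO arrays alone and 0.147 without the first LY294002 array. Ddit4, an inhibitor of mTORC1, was lower at -0.93 (adjusted p = 0.00772). The median over the 23 was 0.10, against 0.01 over all genes. Several of these moved with the kinase inhibitors as well, since Klf2 was 0.89 (adjusted p = 0.00494) in U0126 and Gadd45a 0.87 (adjusted p = 0.000724) in SB202190, and Ddit4 was -0.91 (adjusted p = 0.0215) in SB202190 and 1.40 (adjusted p = 1.59e-05) in TSA. The adjusted p of Ddit4 in SB202190 was 0.0599 in the 6 SB202190 and DMSO arrays alone. It was 0.129 without the first SB202190 array, 0.0995 without the second, and 0.0522 to 0.0629 without any 1 DMSO array. In all, U0126 raised 2 and lowered 0 of the 23 (1.66% and 1.02% of all genes). SB202190 raised 3 and lowered 1 (1.70% and 1.01%), and TSA raised 14 and lowered 1 (27.0% and 22.7%). The largest changes in TSA were in Pmaip1, a cell death gene, at 2.85 (adjusted p = 5.19e-09) and Pdk4, a kinase that restrains pyruvate dehydrogenase, at 1.86 (adjusted p = 2.18e-07). Directly against U0126, LY294002 was higher for Gadd45a by 0.98 (adjusted p = 0.000164), Rbl2 by 0.58 (adjusted p = 0.0236) and Map1lc3b by 0.52 (adjusted p = 0.00390), and against SB202190 for Klf2 by 1.09 (adjusted p = 0.000697).

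Among 13 relatives of the members, 12 were tested and LY294002 raised 3 and lowered 0 (8.85% and 2.21% of all genes). Besides Igf1r these were Arrdc4, an arrestin relative of Txnip, at 0.52 (adjusted p = 0.0276), and Ccni, a cyclin relative of Ccng2, at 0.44 (adjusted p = 0.0286). The mean over the probe sets of Arrdc4 gave 0.25 (adjusted p = 0.139). Without the first LY294002 array the adjusted p was 0.145 for Arrdc4 and 0.145 for Ccni, and in the 6 LY294002 and DMSO arrays alone 0.111 and 0.148. Arrdc4 was also 0.72 (adjusted p = 0.00481) above U0126 and 0.94 (adjusted p = 2.75e-05) above DMSO in TSA. Of 8 regulators read that are known for single members, LY294002 raised 1, Mlxip, a glucose-sensing factor that acts on the Txnip promoter, at 0.44 (adjusted p = 0.0152), and lowered 0. Of 9 p53 targets read, LY294002 raised 0 and lowered 2, Zmat3 at -0.34 (adjusted p = 0.0395) and Perp at -0.31 (adjusted p = 0.0119). TSA raised 5 and lowered 1 of the 9 (27.0% and 22.7% of all genes), while Sesn1, which p53 also turns on, moved as given above. In a fit of the 6 LY294002 and DMSO arrays alone the adjusted p was 0.108 for Mlxip, 0.108 for Zmat3 and 0.102 for Perp.

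Over the 15 arrays the members differed in their pattern. Among the 45 pairs of members Pearson's r ran from -0.93 to 0.93 with a median of 0.28, and 30 pairs were positive. Insr and Irs1 had r = 0.72, and Txnip had r = 0.86 with Ccng2, 0.77 with Sesn3 and 0.11 with Irs1. All these values are over the same 15 arrays, the 3 of TSA included, and describe them only. The genes most like Txnip over the 15 arrays, among 15824, were Wdr45 (r = 0.98), Lmtk2, Sik2, Gspt2 and Clybl (each r = 0.97). The most alike was Fndc3b for Irs1 (r = 0.96), Sowahc for Irs2 (0.98), Pcnx3 for Insr (0.97), Abca9 for Pik3ip1 (0.98), Selenop for Sesn1 (0.96), Fam102b for Sesn3 (0.97), Uba6 for Ccng2 (0.97), Dram1 for Bcl6 (0.84) and Eaf2 for Fbxo32 (0.98).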

How the data were processed

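Total RNA of 15 cultures was hybridized to Affymetrix mouse arrays, 3 for each of 5 treatments. The deposited log2 values were normalized between arrays by the authors, with GC-RMA or RMA (which of these is not settled), and are log2 signals per probe set. There are no counts behind them, precision is set by how many arrays there are, and the 3 arrays of a group come from independent experiments by the study's methods. Groups and replicate numbers came from the sample titles. Of 45101 probe sets, 64 controls were left out, and 34945 had 1 gene symbol.

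A linear model with a mean for each treatment was fitted to the 15 arrays with limma 3.58.1 (R 4.3.3), leaving 10 residual degrees of freedom. A probe set was tested where the mean of either group reached log2 of 50, and p-values were adjusted by Benjamini-Hochberg over all probe sets tested, with a call under 0.05. Counts use the probe set with the highest mean per gene. Comparisons were of each inhibitor with DMSO and of LY294002 with each other inhibitor. The members and gene lists were chosen with earlier results of these data known. From a list, at most 4 called genes per comparison were named, those with the largest change, with Foxo1, Foxo3 and Rbl2 added, and Ddit4 in TSA, after their values were seen, and the genes most like a member by Pearson's r over the arrays. Deviations from the group means were correlated between arrays of the same number, and r was above 0.1 for all pairs in every comparison without TSA. It was 0.771, 0.407 and 0.629 for LY294002 with DMSO, and 0.237, 0.302 and 0.327 for SB202190 with DMSO. With TSA 1 pair was at 0.0268 (DMSO) and -0.113 (LY294002). Arrays of different numbers were not compared, so whether the numbers pair the arrays is not settled. The main fit has no block, and the block is an alternative. Alternatives were the replicate block, the 6 arrays of a comparison alone, no TSA arrays, other filters, quantile normalization, median centring, averaging a gene's probe sets, an intensity trend with a robust prior, and leaving out arrays. The fit was tested on data simulated with independent noise on each array, which says nothing of effects that arrays of the same number may share. Some items are not reported here.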

Additional observations from a re-analysis of the deposited data

How the results depend on the processing

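No call on the 10 genes, and none of the 38 calls named on other genes, changed direction under the alternatives run. Those on other genes were chosen after seeing the data. With LY294002 against DMSO, 5 members were called and 3 in a fit of the 6 arrays alone, and leaving out arrays gave 1 to 6 (1 without replicate 2 of every treatment, where Txnip remained). With U0126 against DMSO, 1 was called, 2 with the replicate block and 0 in the 6 arrays alone, and leaving out arrays gave 0 to 1. With SB202190 against DMSO, 1 was called, 3 with the replicate block, 2 without the TSA arrays and 2 with the mean of all probe sets, and leaving out arrays gave 0 to 2. LY294002 against U0126 gave 1 to 3 and against SB202190 1 to 3 when arrays were left out. The share of all genes called higher moved as well. Against DMSO it was 0.416% to 14.9% with LY294002, 0.220% to 1.95% with U0126 and 0.0818% to 2.49% with SB202190. For LY294002 it was 0.403% to 5.22% against U0126 and 0.549% to 3.36% against SB202190. The share called lower was 0.182% to 0.873% with U0126 against DMSO and 0.322% to 2.02% in LY294002 against SB202190. Without TSA in a comparison the block is given beside the results it changes, and with TSA it brought Insr in TSA against DMSO to an adjusted p of 0.0396, and Sesn1 and Bcl6 in LY294002 against TSA to 0.0341 and 0.0394. With the block 29.8% of all genes were called higher and 27.4% lower in TSA than in DMSO. In LY294002 against TSA these shares were 26.8% and 26.2%. The block changed no other call on the 10 genes and ended none of the 38 named on others. It raised the shares of all genes called higher and lower to 16.8% and 5.55% with LY294002, 3.44% and 2.25% with U0126 and 4.77% and 2.36% with SB202190, against DMSO, so the members called are to be read against these. In the 6 arrays alone these shares were 2.02% and 0.566%, 0.759% and 0.558%, and 0.836% and 0.629%. With SB202190 they were 1.43% and 0.956% without the TSA arrays, and 2.08% and 1.59% with the mean of all probe sets. Of the 38 calls on other genes, 12 were lost in the 6 arrays alone, 25 without replicate 2 of every treatment, 16 without replicate 3 and 10 without replicate 1, and of the 25 with LY294002, 11, 5 and 1 without its arrays of replicates 1, 2 and 3, in that order. Over all members, comparisons and alternatives, 68 calls were lost and 28 gained, and quantile normalization brought Irs2 with LY294002 to an adjusted p of 0.0560.

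Differences that were not called changed sign. Under quantile normalization these were Sesn3 (-0.0298) with LY294002 and Irs1 (-0.0120) with SB202190 against DMSO, and Sesn1 (-0.0450) and Fbxo32 (0.00529) in LY294002 against U0126. Centring on the array median gave Pik3ip1 0.0478 with LY294002 against DMSO. The mean of all probe sets gave Pik3ip1 0.0417 with LY294002 and Fbxo32 -0.0294 with SB202190 against DMSO, and Fbxo32 0.0815 in LY294002 against U0126. With arrays left out, the log2 difference ranged from -0.0740 to 0.231 for Sesn3 and -0.0337 to 0.0405 for Pik3ip1 with LY294002 against DMSO. With U0126 against DMSO it ranged from -0.0889 to 0.0418 for Irs2, -0.397 to 0.0298 for Sesn3 and -0.253 to 0.0731 for Ccng2. With SB202190 against DMSO it ranged from -0.0650 to 0.176 for Irs1, -0.0238 to 0.223 for Irs2 and -0.0345 to 0.360 for Ccng2. It ranged from -0.104 to 0.205 for Sesn1 in LY294002 against U0126, from -0.0268 to 0.0360 for Fbxo32 and -0.0228 to 0.131 for Bcl6 against SB202190, and from -0.239 to 0.0210 for Ccng2 against TSA. The cause was not tested.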
